A study of Tachycineta bicolor and Sialia sialis and Hirundo rustica with 121 samples.

Results

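The genes described here are 36 genes of the Z chromosome, the larger sex chromosome of birds, out of 10672 genes in a table of sequencing read counts from the songbird forebrain. Their symbols form a given list that was drawn up with male and female levels of these same birds in view. All 36 were found in the table, and all 36 passed the filter on low counts that left 10648 genes for testing. No genome annotation was used, so their place on the Z chromosome of each species rests on their names alone. For each gene and species the quantity followed was the log2 of the mean level in males over the mean level in females. A value of 0 is an equal level and a value of 1 is a level 2-fold higher in males.

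Male birds carry a pair of Z chromosomes, and females carry a single Z with the small, gene-poor W. Mammals silence nearly a whole X chromosome in females, whereas birds have no known chromosome-wide counterpart, and Z genes are adjusted gene by gene and in part. This state is known as incomplete dosage compensation, and many Z genes are known to be higher in males across bird tissues, the brain included.

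RNA sequencing covered 121 adult birds (61 females and 60 males) of 10 species, with tissue from the ventromedial part of the telencephalon in the forebrain. The birds were sampled in the Midwestern United States while territories were set up and nests were built, before any eggs. Each of 5 families contributed a species that nests only in cavities and a partner with a less strict habit. Naming the obligate nester first, the pairs were Tree Swallow and Barn Swallow in Hirundinidae, Prothonotary Warbler and Yellow Warbler in Parulidae, Eurasian Tree Sparrow and House Sparrow in Passeridae, House Wren and Carolina Wren in Troglodytidae, and Eastern Bluebird and American Robin in Turdidae. Among the partners, House Sparrow and Carolina Wren use cavities facultatively and the rest build open cups. Each species had 6 females and 6 males by its labels, except Tree Swallow with 7 females. The labels name no pooling and no sequencing batch, and the genes of all 10 species are listed under zebra finch protein identifiers.

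Library totals lay between 4526413 and 7549296 counts, and levels are given as CPM, that is, counts divided by a library size that TMM had adjusted. CHD1W, a gene of the W chromosome that checks the labelled sex, was higher in every female than in every male of each species, once a pair of Carolina Wren libraries was left out, the one labelled female 1 with 8.37 CPM and the one labelled male 3 with 67.7 CPM. Those libraries also stood with the other sex in the mean log2 CPM over the 36 genes, at 5.58 for the library labelled female and 4.94 for the library labelled male. The results below rest on the other 119 birds, with 5 females and 5 males of Carolina Wren. Of 8 telencephalon markers 7 were measured, with a summed level between 143 and 611 CPM over the birds. Of 6 blood markers 3 were measured (HBAD, HBAA and EPB42), and their summed level was lower in males in 10 of 10 species (log2 from -0.88 to -0.003). The ranges of that sum were 254 to 4323 CPM in males and 326 to 8783 CPM in females, and its part in the results was not tested. The summed choroid plexus and ependyma markers (TTR, FOXJ1 and CFAP46) differed between the sexes by log2 values from -3.79 to 2.04 and were higher in males in 5 of 10 species. Bird numbers in the labels name birds within a species and sex. The edgeR and DESeq2 p-values measure the spread between these birds. The limma p-values measure the spread between species means, with family as a block.

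**Figure D1:**
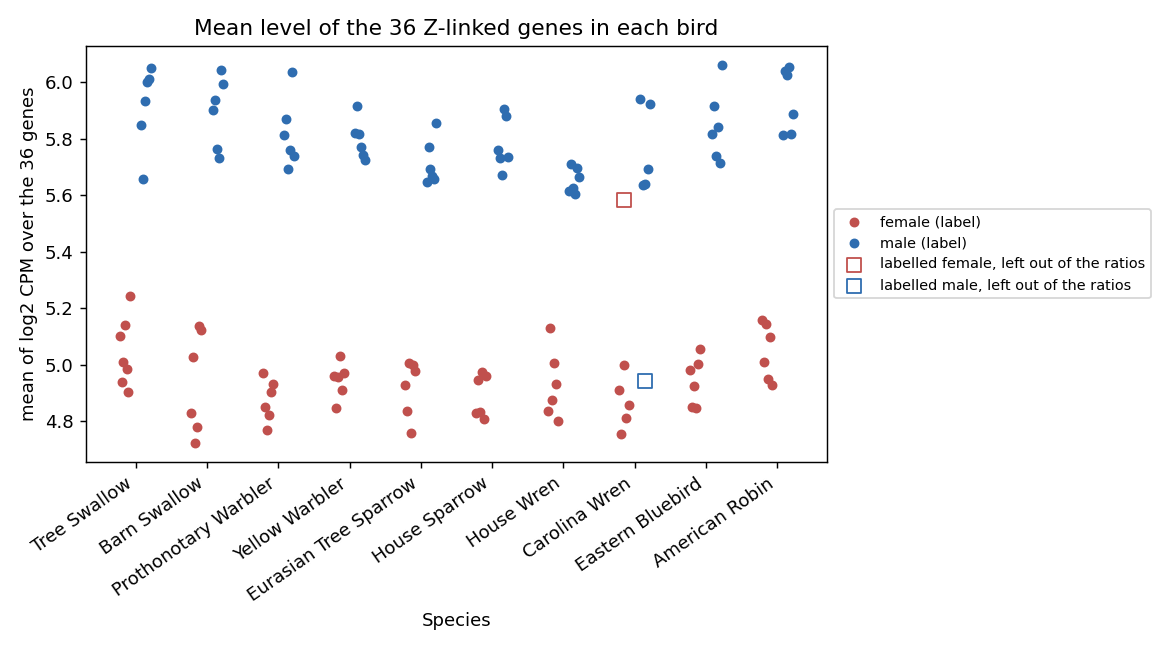
Mean of log2 CPM over the 36 Z-linked genes (vertical axis) in each of 121 birds, by species (horizontal axis) and labelled sex; open squares are the Carolina Wren libraries left out of the ratios. Males and females used do not overlap in any species, and the open squares, at 5.58 and 4.94, lie with the opposite sex.

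The male over female ratio of these genes is given as a description, because it is the quantity the list was drawn up with. Averaged over species, 31 of the 36 genes lay near 2-fold, defined as a mean log2 ratio of at least 0.75, and 5 lay between 0.25 and 0.75. None (0 of 36) lay near equal, defined as at most 0.25. The median of the 36 means was 0.91 (SD 0.17 between genes). The gene just inside the near 2-fold class was CDC37L1 at 0.78, and the gene just outside it was PRKAA1 at 0.58. In tissue samples like these, a lower number of cells of a type and less RNA per cell cannot be told apart.

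Over single species, 359 combinations of gene and species had a ratio. Of these, 284 were at least 0.75, 70 lay between 0.25 and 0.75, and 5 were at most 0.25. A ratio above 1 was seen in 106 combinations and a ratio below 0 in 3. In 284 combinations every male was above every female, which held for 1.55% to 2.91% of all tested genes by species. These are not the same 284 combinations as those of at least 0.75. CCDC171, for example, was at least 0.75 in 10 species and had every male above every female in 6. 13 genes had no species under 0.75, namely TUT7, TTC37, CCNH, WDR41, ATG12, NAA35, DNAJA1, RAD1, CCDC171, TTC33, SNX24, RCL1 and CZH9orf64, and 30 genes were at 0.5 or more in all 10 species. TRIM14, which had no ratio in House Wren, is in neither count.

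**Figure D2:**
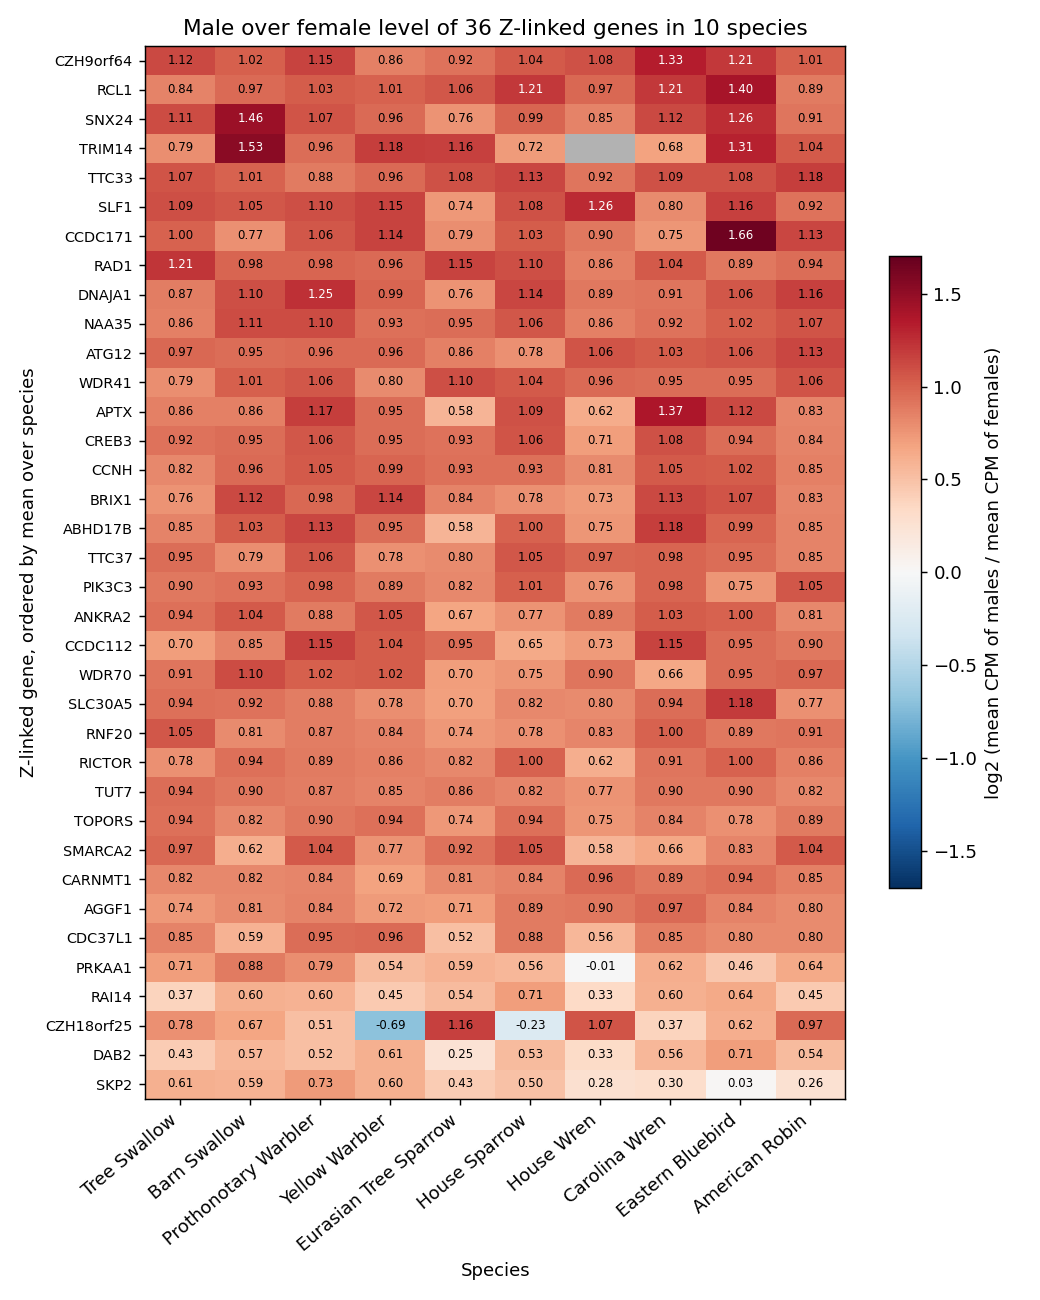
Log2 ratio of mean CPM in males over females (colour and printed value) for each of the 36 genes (rows, ordered by their mean over species) in each of 10 species (columns); red is higher in males, blue is higher in females, and the grey cell had too few reads. CZH18orf25 is below 0 in Yellow Warbler (-0.69) and House Sparrow (-0.23), PRKAA1 is just below 0 in House Wren (-0.01), and the lowest rows hold SKP2, DAB2, CZH18orf25, RAI14 and PRKAA1.

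With 31 of all 36 genes near 2-fold, nothing is read from the groups by role used below. The 6 genes of transcription and chromatin were all near 2-fold, within a narrow band of means from 0.85 to 0.94. They were SMARCA2 (0.85), an ATPase of the SWI/SNF chromatin remodelling complex, TOPORS (0.85), a ligase for ubiquitin and SUMO, RNF20 (0.87), a ubiquitin ligase for histone H2B, ANKRA2 (0.91), an ankyrin repeat protein that binds histone deacetylases, CCNH (0.94), the cyclin of the kinase that phosphorylates RNA polymerase II at initiation, and CREB3 (0.94), a transcription factor held at the endoplasmic reticulum. TOPORS and CCNH were among the 3 genes with the narrowest range of ratios over species. TOPORS stood at 29.5, 33.7 and 37.5 CPM (lowest, median and highest) in 6 House Sparrow females and at 49.6, 64.5 and 73.7 CPM in 6 males, which was its highest ratio (log2 0.94 ± 0.10, SE). In Eurasian Tree Sparrow, where its ratio was lowest (0.74 ± 0.09), females had 30.1, 34.4 and 43.3 CPM and males 52.6, 60.6 and 63.2 CPM. The sexes did not overlap in either species. CCNH ran from 37.9 over 42.2 to 49.6 CPM in Prothonotary Warbler females and from 79.5 over 82.8 to 122 CPM in males (1.05 ± 0.12). In House Wren it ran from 33.7 over 37.5 to 47.7 CPM in females and from 61.4 over 66.4 to 77.9 CPM in males (0.81 ± 0.09). Here too every male was above every female.

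The 5 genes of RNA and ribosome production were also all near 2-fold, and they held both the narrowest range and the highest mean. TUT7, which adds uridines to the ends of RNAs, had the narrowest range of all 36, from 0.77 ± 0.11 in House Wren to 0.94 ± 0.08 in Tree Swallow. Its lowest, median and highest levels were 36.1, 47.5 and 58.4 CPM in House Wren females and 75.6, 81.8 and 92.9 CPM in males. In Tree Swallow they were 124, 142 and 171 CPM in 7 females and 241, 280.1 and 304 CPM in 6 males, so the level was several times that in House Wren while the ratios were close. CZH9orf64, named as the Z counterpart of human C9orf64, an enzyme that salvages the transfer RNA base queuosine, had the highest mean ratio (1.07). Its ratio was highest in Carolina Wren (1.33 ± 0.22), where 5 females had 8.79, 21.0 and 23.0 CPM and 5 males had 39.0, 48.1 and 57.6 CPM. One female of that group, number 7, was far below the rest, and without it the ratio was 1.15. In Yellow Warbler its ratio was lowest (0.86 ± 0.12), with 11.6, 16.0 and 18.9 CPM in females and 24.9, 27.6 and 34.5 CPM in males. RCL1, known from yeast as a nuclease of ribosomal RNA processing, had the second highest mean (1.06). Its highest ratio, 1.40 ± 0.33 in Eastern Bluebird, rested on females at 6.29, 7.80 and 10.2 CPM and males at 14.4, 17.1 and 45.4 CPM, and was 1.05 without male 12. In Tree Swallow (0.84 ± 0.16) females had 9.36, 11.1 and 14.0 CPM and males 10.4, 22.2 and 23.4 CPM, and a single male, number 2, reached into the range of the females. TTC37 (0.92), a part of the SKI complex that feeds RNA to the exosome, and BRIX1 (0.94), a factor of the large ribosomal subunit, completed the group.

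Of 5 genes of protein modification and turnover, 4 were near 2-fold. NAA35 (0.99) is a subunit of an N-terminal acetyltransferase, ABHD17B (0.93) removes palmitate from proteins, and CARNMT1 (0.85) methylates carnosine. TRIM14, an adaptor of antiviral signalling with a mean ratio of 1.04, had the fewest reads of the 36, with 4258 in all. Its sexes were apart in 2 of 10 species, and the edgeR test by sex, given below, called it in 3. Its ratio was highest in Barn Swallow (1.53 ± 0.24), with 5.59, 10.6 and 16.0 CPM in females and 26.2, 31.5 and 34.4 CPM in males. In Carolina Wren (0.68 ± 0.51) females had 0, 0.425 and 0.494 CPM and males 0.302, 0.510 and 0.754 CPM, which overlapped. That ratio rests on 16 reads in males and 10 in females. In House Wren only 4 reads in 6 males and 1 read in 6 females were counted, so no ratio was taken there. SKP2, the substrate receptor of a ubiquitin ligase that drives the cell cycle, had the lowest mean ratio of the 36 (0.43).

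SKP2 had a ratio of at most 0.25 in 1 of 10 species, and its sexes were apart in 3. In Prothonotary Warbler, where its ratio was highest (0.73 ± 0.12), females had 5.37, 6.44 and 7.92 CPM and males 8.90, 11.0 and 12.3 CPM. In Eastern Bluebird (0.03 ± 0.32) females had 14.5, 18.2 and 20.4 CPM and males 0, 21.5 and 26.7 CPM. The sexes were apart in the warbler and overlapped in the bluebird. The male at 0 CPM was number 12, a library that stood apart from its group, and without it the bluebird ratio was 0.29. SKP2 was the only one of the 36 genes that the edgeR test by sex, given below, called in none of the 10 species.

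The 4 genes of trafficking, transport and cytoskeleton were split. SNX24 (1.05), a sorting nexin, and SLC30A5 (0.87), a zinc transporter of the secretory pathway, were near 2-fold. DAB2 (0.51), an adaptor of clathrin endocytosis, and RAI14 (0.53), an actin-binding protein, were not. SNX24 was highest in Barn Swallow (1.46 ± 0.25), with females at 1.86, 12.6 and 15.0 CPM and males at 28.4, 29.8 and 34.0 CPM, and stood at 1.23 there without female 3. In Eurasian Tree Sparrow (0.76 ± 0.11) females had 18.4, 21.4 and 27.2 CPM and males 33.6, 35.6 and 45.3 CPM. The sexes were apart in both. DAB2 ran from 14.5 over 17.2 to 19.3 CPM in Eurasian Tree Sparrow females and from 16.6 over 20.5 to 23.5 CPM in males (0.25 ± 0.11). In Eastern Bluebird it ran from 18.9 over 22.5 to 32.1 CPM in females and from 30.5 over 41.4 to 43.3 CPM in males (0.71 ± 0.14). The sexes overlapped in both species, and DAB2 was the only one of the 36 genes whose sexes overlapped in all 10. RAI14 had 14.4, 19.4 and 22.5 CPM in House Wren females and 18.4, 25.02 and 28.1 CPM in males (0.33 ± 0.13). In House Sparrow it had 14.2, 16.6 and 25.8 CPM in females and 21.6, 29.3 and 34.8 CPM in males (0.71 ± 0.17), again with an overlap.

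Of 5 kinases and autophagy genes, 4 were near 2-fold. These were RICTOR (0.87), which defines the mTORC2 kinase complex, PIK3C3 (0.91), the lipid kinase that starts autophagosomes, WDR41 (0.97), a partner of C9orf72 in autophagy, and ATG12 (0.98), a ubiquitin-like protein of autophagosome growth. The other was PRKAA1 (0.58), a catalytic subunit of the energy sensor AMPK, which had one of the 3 widest ranges of the ratio. PRKAA1 stood at 27.9, 82.3 and 90.0 CPM in Barn Swallow females and at 104, 136 and 163 CPM in males (0.88 ± 0.21), and at 0.72 without female 3. In House Wren it stood at 30.6, 35.2 and 39.2 CPM in females and at 30.8, 34.5 and 39.0 CPM in males (-0.01 ± 0.08). Males were all above females in the swallow, and in the wren the ranges lay nearly on top of each other.

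The 3 DNA repair genes were near 2-fold, with RAD1 (1.01), a part of a DNA damage clamp, SLF1 (1.03), which brings the SMC5/6 complex to damage, and APTX (0.95), which frees blocked DNA ends. Both chaperone genes were as well, DNAJA1 (1.01), an HSP40 partner of HSP70, and CDC37L1 (0.78), a co-chaperone of HSP90. Of the 6 genes of other or less known role, AGGF1 (0.82), an angiogenic factor, WDR70 (0.90), CCDC112 (0.90), CCDC171 (1.02) and TTC33 (1.04) were near 2-fold and CZH18orf25 (0.52) was not. CCDC171, a coiled-coil protein, had the second widest range. It was highest in Eastern Bluebird (1.66 ± 0.35), with 2.42, 4.37 and 7.25 CPM in females and 8.08, 12.9 and 26.4 CPM in males, and 1.39 without male 12. In Carolina Wren (0.75 ± 0.22) females had 5.11, 6.32 and 8.73 CPM and males 7.70, 10.0 and 15.6 CPM, with an overlap that the bluebirds did not show.

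Median ratios of the 36 genes lay between 0.81 and 0.98 across species. The lowest was 0.81 in Eurasian Tree Sparrow (1.75-fold), followed by 0.83 in House Wren, 0.87 in Tree Swallow, 0.89 in American Robin, 0.93 in Barn Swallow, 0.94 in House Sparrow, Carolina Wren and Yellow Warbler, 0.95 in Eastern Bluebird and 0.98 in Prothonotary Warbler (1.97-fold). The median over all tested genes was between -0.03 and 0.00 in each species. The mean log2 level of the 36 genes varied between birds of a species and sex with an SD between 0.07 and 0.16. Neighbours in this order were closer than that spread, which is one of single birds and not the error of a median ratio. A further 298 genes, listed from general knowledge of avian Z chromosomes and not checked for position, had median ratios between 0.49 and 0.71 by species.

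**Figure D3:**
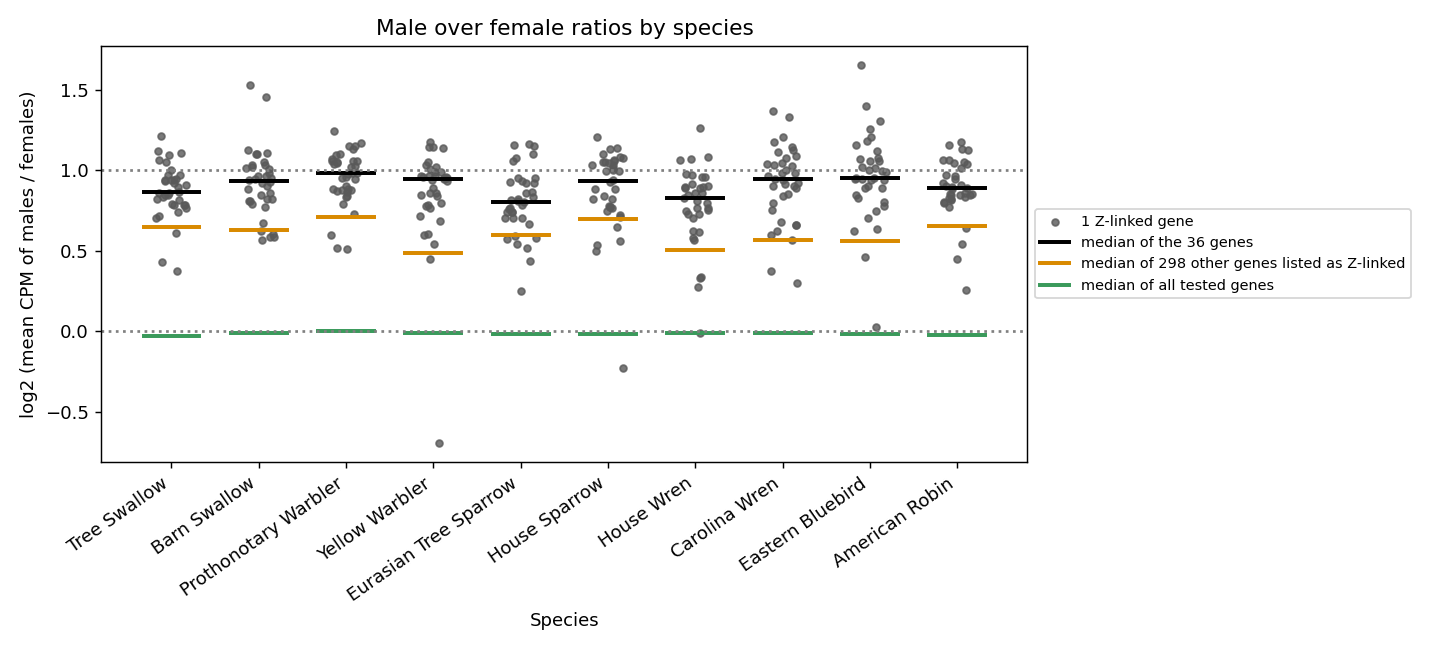
Log2 ratio of mean CPM in males over females (vertical axis) by species (horizontal axis); each point is a Z-linked gene, black bars are the medians of the 36 genes, orange bars the medians of 298 other genes listed as Z-linked and green bars the medians of all tested genes. The black bars lie between 0.81 and 0.98, above the orange bars in each species, and single genes fall below 0 in Yellow Warbler, House Sparrow and House Wren.

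Calls of the male over female difference repeat the quantity behind the list and are given for completeness. edgeR's quasi-likelihood test, at an adjusted p of 0.05 over all 10648 genes, called 32 of the 36 genes higher in males in Tree Swallow (2.83% of all tested genes were called higher in males), 34 in Barn Swallow (3.09%), 31 in Prothonotary Warbler (2.35%) and 32 in Yellow Warbler (2.02%). It called 31 in Eurasian Tree Sparrow (2.13%), 32 in House Sparrow (2.6%), 31 in House Wren (2.22%), 29 in Carolina Wren (2.26%), 33 in Eastern Bluebird (2.57%) and 34 in American Robin (2.54%). No member (0 of 36) was called lower in males in any species. Every male was above every female for 25 of the 36 genes in Tree Swallow (2.29% of all genes), 29 in Barn Swallow (2.18%), 28 in Prothonotary Warbler (2.22%), 32 in Yellow Warbler (2.05%) and 32 in Eurasian Tree Sparrow (1.83%). The same held for 25 in House Sparrow (1.74%), 29 in House Wren (2.91%), 30 in Carolina Wren (2.52%), 26 in Eastern Bluebird (1.55%) and 28 in American Robin (1.66%). Nothing is read from these shares, since the list was chosen on this difference.

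How the ratios were spread over genes and species is given as a description, since the list was drawn up with these same ratios in view and nothing is read from it. Over the 35 genes with a ratio in every species, 49.1% of the variance of the ratios lay between genes, 5.58% between species, and 45.3% was left, which holds both gene by species differences and the error of each ratio. The Spearman correlation of the ratios across genes had a mean of 0.429 over 45 pairs of species (0.169 to 0.659) and of 0.380 over the 5 pairs of the same family. Over the 30 of these 35 genes that were near 2-fold, the mean over the 45 pairs was 0.219. These correlations are across genes, which share libraries and are not independent replicates. Across the 36 genes the mean ratio showed little relation to expression (Spearman rho -0.104 with mean CPM, which is not corrected for gene length), and the SD of the ratio over species was larger in genes of low level (rho -0.450).

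Whether the male over female ratio varied between species was tested as the interaction of sex and species. The list was drawn up with male and female levels of these birds in view. The test is thus not independent of the list, and its calls are given as a description. edgeR's test called 2 of the 36 genes at an adjusted p of 0.05, CZH18orf25 and SMARCA2, against 117 of 10648 genes (1.1%). At an unadjusted p under 0.05 there were 4 of the 36 genes and 799 of all genes (7.5%).

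CZH18orf25, named as the Z counterpart of human C18orf25, a gene of little known function, was the only one of the 36 with all females above all males in a species. In Yellow Warbler females had 10.4, 12.5 and 13.0 CPM (lowest, median, highest) and males 6.45, 7.48 and 8.32 CPM, a log2 ratio of -0.69 ± 0.08. In House Sparrow females had 7.52, 8.71 and 10.7 CPM and males 4.07, 8.08 and 8.85 CPM, a ratio of -0.23 ± 0.16 with an overlap. The direction was the opposite in the other 8 species. The edgeR test by sex called this gene in 4 species, with neither Yellow Warbler nor House Sparrow among them. Its ratios were 0.37 ± 0.16 in Carolina Wren, 0.51 ± 0.18 in Prothonotary Warbler, 0.62 ± 0.21 in Eastern Bluebird, 0.67 ± 0.33 in Barn Swallow and 0.78 ± 0.12 in Tree Swallow, all with overlapping sexes. They were 0.97 ± 0.22 in American Robin, 1.07 ± 0.09 in House Wren and 1.16 ± 0.14 in Eurasian Tree Sparrow, where the sexes were apart. The Barn Swallow ratio includes female 3 at 0.339 CPM, with the other females between 6.14 and 12.3 CPM. In Eurasian Tree Sparrow females had 2.54, 3.87 and 4.49 CPM and males 5.86, 8.46 and 9.50 CPM. House Wren females had 4.92, 6.07 and 6.84 CPM and males 11.3, 12.2 and 14.5 CPM. The interaction of sex and species had an adjusted p of 3.32e-05 (edgeR). It turned on Yellow Warbler, and without that species the adjusted p was 0.107 (edgeR). Without Barn Swallow female 3 it was 2.56e-09 (edgeR). Both alternatives were chosen after the data were seen. In each family pair that holds a negative ratio, the partner species had a positive one, 0.51 in Prothonotary Warbler beside Yellow Warbler and 1.16 in Eurasian Tree Sparrow beside House Sparrow. The chicken W chromosome is known to keep a copy of this gene. A count by gene name cannot tell reads of a Z copy from those of a near-identical W copy, so the female level of this gene is uncertain.

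SMARCA2 was higher in males throughout, with no overlap of the sexes in any species, and differed in the size of the ratio. The lowest ratios were 0.58 ± 0.04 in House Wren, 0.62 ± 0.13 in Barn Swallow and 0.66 ± 0.12 in Carolina Wren. The ratio was 0.77 ± 0.06 in Yellow Warbler, 0.83 ± 0.07 in Eastern Bluebird, 0.92 ± 0.10 in Eurasian Tree Sparrow and 0.97 ± 0.09 in Tree Swallow. It was highest in American Robin and Prothonotary Warbler (both 1.04) and House Sparrow (1.05 ± 0.07). House Wren females had 265, 270.1 and 290 CPM and males 360, 419 and 427 CPM, against 249, 278 and 302 CPM in House Sparrow females and 514, 587 and 634 CPM in males. Female levels of this pair of species were close, and male levels were apart. Barn Swallow, also among the lowest ratios, did not share this. Its females had a mean of 411 CPM and its males 632 CPM, against 279 and 577 CPM in House Sparrow. Levels of different species include how well their reads matched the reference, which was not tested. The interaction had an adjusted p of 0.0215 (edgeR). In alternatives chosen after the data were seen, the edgeR adjusted p was 0.1485 without House Wren, 0.0803 without Barn Swallow and 0.0630 without House Sparrow, none of them past the threshold.

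PRKAA1 had the third smallest p of the 36 genes and did not pass (adjusted p = 0.253, edgeR). Its ratio was 0.46 ± 0.13 in Eastern Bluebird, 0.54 ± 0.11 in Yellow Warbler, 0.56 ± 0.17 in House Sparrow, 0.59 ± 0.13 in Eurasian Tree Sparrow, 0.62 ± 0.10 in Carolina Wren, 0.64 ± 0.11 in American Robin, 0.71 ± 0.11 in Tree Swallow and 0.79 ± 0.16 in Prothonotary Warbler. House Wren thus stood below the other 9 species. The next genes were SLC30A5 (adjusted p = 0.473), APTX (0.678) and WDR70 (0.799) in the same edgeR test. For SLC30A5 the highest ratio was 1.18 in Eastern Bluebird, with 35.1, 42.6 and 47.6 CPM in females and 71.1, 96.2 and 114 CPM in males, and every other species was at 0.94 or lower. A p above the threshold does not show that the other 34 genes had equal ratios in the 10 species.

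**Figure D4:**
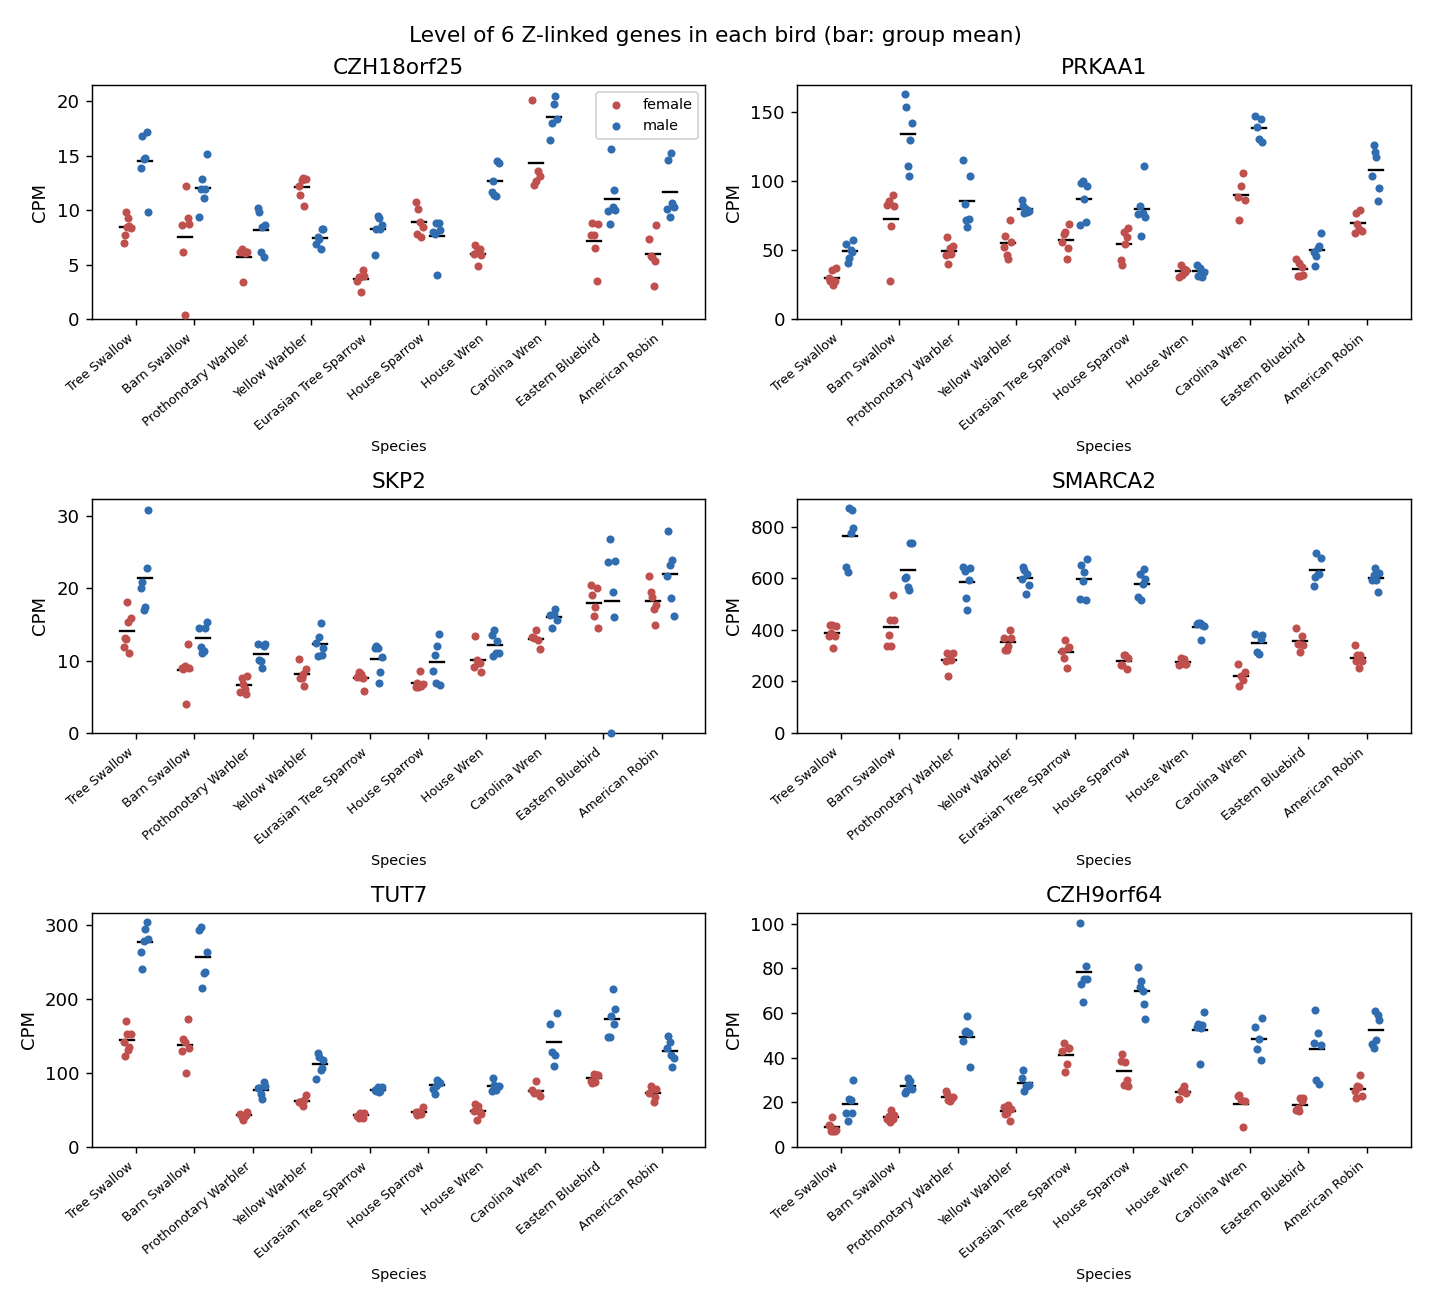
Level in CPM (vertical axes, from 0) of 6 Z-linked genes in each of 119 birds by species (horizontal axes); red points are females, blue points males, and black bars group means. CZH18orf25 is higher in females in Yellow Warbler, PRKAA1 overlaps between the sexes in House Wren, SKP2 overlaps in most species, and TUT7, SMARCA2 and CZH9orf64 have higher means in males in all 10.

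Since the study asks about nesting strategy, the male over female ratio was compared between obligate and less obligate nesters. edgeR's test of sex by nesting called 0 of the 36 genes, against 11 of 10648 genes (0.103%), and at an unadjusted p under 0.05 it held 1 of the 36 genes and 538 of all genes. DESeq2 called 0 of the 36 and 9 of the 10648 genes (0.0845%). The gene with the smallest p was CZH18orf25, whose log2 ratio was higher by 0.60 in obligate nesters (adjusted p = 0.263, edgeR). Its ratios in obligate nesters were between 0.51 and 1.16 and in less obligate nesters between -0.69 and 0.97, so the groups of species overlapped. With an adjusted p of 0.263 (edgeR) the gene was not called, and its p turned mainly on Barn Swallow female 3. That bird had 0.339 CPM, with the other females of its group between 6.14 and 12.3 CPM. Without the 4 libraries that stood apart from their species, this bird among them, the adjusted p was 0.0222 (edgeR). The others were Barn Swallow female 4, House Sparrow female 3 and Eastern Bluebird male 12. All 4 were named with earlier results of these data known. In further alternatives, chosen after the data were seen, the adjusted p was 0.00775 (edgeR) without Barn Swallow female 3 alone. It was between 0.343 and 0.457 (edgeR) without each of the other 3 alone. Birds are the units of this test, so the spread of the ratio between species is not in these p-values. The next genes were PIK3C3 (-0.13) and ABHD17B (-0.14), both with an adjusted p of 0.913 (edgeR).

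Levels of the 36 genes, averaged over the sexes, were compared between obligate and less obligate species, as for the ratio. A limma fit to the mean log2 CPM of each of the 10 species, blocked by family, called 0 of the 36 genes and 0 of 10648 genes (0%). At an unadjusted p under 0.05 there were 1 of the 36 genes and 477 of all genes. That gene was PRKAA1, whose mean log2 CPM was lower by 0.79 ± 0.30 (SE, 10 species) in obligate nesters, with a limma adjusted p of 0.953. PRKAA1 was lower in the obligate species of 3 families, with 39.6 CPM in Tree Swallow and 103 CPM in Barn Swallow, 34.7 CPM in House Wren and 114 CPM in Carolina Wren, and 43.1 CPM in Eastern Bluebird and 88.9 CPM in American Robin. It stood at 67.7 CPM in both warblers, and at 72.1 and 67.3 CPM in Eurasian Tree Sparrow and House Sparrow. WDR41 (0.45 ± 0.20) and DNAJA1 (1.51 ± 0.70) followed, both with the same limma adjusted p of 0.953. The DNAJA1 difference rests largely on American Robin, with a mean log2 CPM of 2.87. The other species lay between 6.04 (Carolina Wren) and 7.99 (Eurasian Tree Sparrow).

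Between the species of a family, many of the 36 genes differed in level, in both directions. These differences include any difference in how well reads of a species matched the reference, which was not tested. In Hirundinidae edgeR called 15 of the 36 genes higher and 12 lower in the obligate species, against 56.1% of all genes called in either direction. In Parulidae it called 12 higher and 13 lower (50.9%), in Passeridae 10 and 11 (48.4%), in Troglodytidae 10 and 11 (48.7%) and in Turdidae 12 and 16 (62.1%). Changes of at least 2-fold were called for 5 genes in Hirundinidae (14.8% of all genes), 3 in Parulidae (12.5%), 2 in Passeridae (12.7%), 7 in Troglodytidae (12.2%) and 7 in Turdidae (18.4%). The 7 in Troglodytidae include TRIM14, whose reads in the wrens are too few for the size of its change to be given. A set of 6 genes was called in all 5 families, namely CCNH, DNAJA1, RNF20, SLF1, TTC37 and WDR41, against 9.5% of all genes. None (0 of 36) was called in the same direction in all 5, against 0.535% of all genes.

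The largest difference was that of DNAJA1 in Turdidae. American Robin females had 3.35, 4.95 and 6.44 CPM and males 6.41, 10.7 and 14.9 CPM, whereas Eastern Bluebird females had 139, 156 and 191 CPM and males 266, 349 and 422 CPM. Every bluebird was far above every robin, and the log2 difference was 5.05 (edgeR adjusted p = 2.08e-62). The male over female ratio was nevertheless close in both species, 1.16 in the robin and 1.06 in the bluebird. In Hirundinidae the largest was WDR70, with 154 CPM in Tree Swallow and 41.6 CPM in Barn Swallow (log2 1.92, edgeR adjusted p = 1.56e-41). In Parulidae it was TRIM14, with 6.65 CPM in Prothonotary Warbler and 2.17 CPM in Yellow Warbler (log2 1.68, edgeR adjusted p = 9.90e-09). In Passeridae it was PIK3C3, with 72.3 CPM in Eurasian Tree Sparrow and 162 CPM in House Sparrow (log2 -1.13, edgeR adjusted p = 4.79e-25). In Troglodytidae it was TRIM14 again, which had so few reads in both wrens that no fold is given, followed by NAA35 with 113 CPM in House Wren and 29.4 CPM in Carolina Wren (log2 1.96, edgeR adjusted p = 3.58e-43).

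The 36 genes varied more in level than in male over female ratio over the species, as all tested genes did by the medians below. Differences in how well reads of a species matched the reference enter the level, and their part was not tested. Over all 36, the range of the log2 level over the 10 species had a median of 1.53 (all genes, 1.63), and without TRIM14 it ran from 0.55 in ABHD17B to 5.13 in DNAJA1. The lowest level of TRIM14, in House Wren, rests on 4 reads in males and 1 in females and on the prior count, so its range is not given. The range of the log2 ratio had a median of 0.43 (all genes, 0.59). Without TRIM14 the level had the wider range in 33 of 35 genes, and the exceptions were CZH18orf25 (1.499 for the level and 1.86 for the ratio) and ABHD17B (0.55 and 0.60). That share was not computed over all tested genes. SLF1 is an example, with a level range of 3.75 and a ratio range of 0.52. In Eurasian Tree Sparrow its females had 51.4, 77.2 and 89.2 CPM and its males 104, 124 and 138 CPM, and in American Robin its females had 3.43, 5.03 and 6.72 CPM and its males 5.86, 9.85 and 12.9 CPM. Males were higher on average in both species (0.74 and 0.92).

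**Figure D5:**
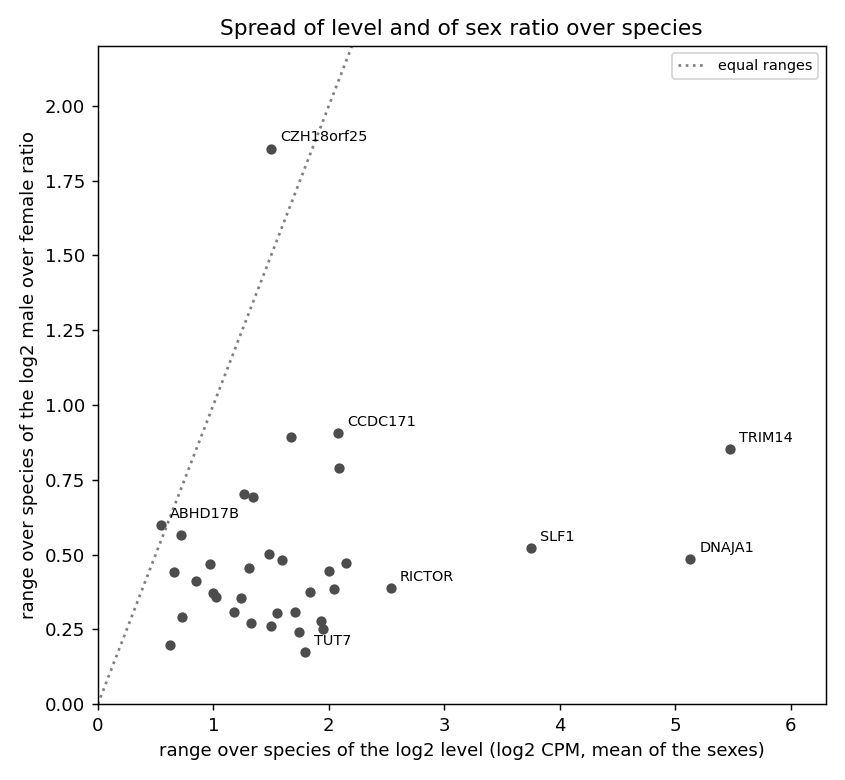
Range over 10 species of the log2 male over female ratio (vertical axis) against the range over species of the log2 level averaged over the sexes (horizontal axis); each point is 1 of the 36 Z-linked genes and the dotted line marks equal ranges. The rightmost point is TRIM14, whose level range depends on the prior count; of the other 35 genes, 33 lie right of the line, and CZH18orf25 (1.86) and ABHD17B (0.60) lie left of it.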

How the data were processed

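The authors deposited a table of raw counts of reads per gene, whole numbers with 1 column per bird. Each of the 121 columns was tied to a bird by its title. Per the labels' protocols, RNA came from a phenol chloroform extraction and libraries were stranded mRNA libraries. featureCounts (Subread 2.02z), SAMtools 1.10, Bowtie2 2.4.4, fastp 0.20.1 and Trimmomatic 0.36 are named, in no order, per the submitters' processing notes. The genome build and annotation behind them are, in the sources used here, not given. With more reads a level carries less counting error, and genes with few reads, such as TRIM14, have the least certain ratios.

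The members, the lists and the tests were chosen with earlier results of these data known. Carolina Wren female 1 and male 3 were left out because CHD1W went against their labels. Computations used R 4.3.3 with edgeR 4.0.16 and limma 3.58.1 (DESeq2 1.42.0 as an alternative), with figures drawn by matplotlib 3.10.9 in Python 3.11.15. Counts were filtered by filterByExpr and scaled by TMM. edgeR's quasi-likelihood test was fitted to all tested genes with 1 mean per species and sex, and for sex by nesting with species, sex and their product with strategy. That model holds birds as units, so the spread of the ratio between species is not in it. The limma fit used the mean log2 CPM of each of 10 species, at a prior count of 2, and a block for family. All tests were two-sided with Benjamini-Hochberg adjustment over all tested genes. The fits were run on simulated data with known changes, which does not measure their power in these data.

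A ratio is the log2 of mean CPM in males over females, and its SE comes from the spread between birds by error propagation. No ratio was taken where both sexes had a mean count under 3, a limit chosen after the data were seen. Values by bird are given for the 4 highest and 4 lowest mean ratios and the 3 widest and 3 narrowest ranges, in the species at both ends. Members with the smallest p in each interaction or strategy test and the largest difference in each family were also named.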

Additional observations from a re-analysis of the deposited data

Results flagged for a closer look

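Single birds were looked at in 124 groups, each a gene or the mean over the 36 genes in the birds of 1 species and sex. Of these, 12 groups (9.68%) held a bird far from the others. The nominal rate of about 5% is not a fair background here. Most genes were looked at only in the species with their highest and lowest ratios, which single birds help to set. Some birds also recur across genes. CZH18orf25 accounted for 4 of the 12 groups. Carolina Wren female 2 had 20.1 CPM, with the other females between 12.3 and 13.6 CPM. Eurasian Tree Sparrow male 1 had 5.86 CPM, with the others from 8.28 CPM, House Sparrow male 4 had 4.07 CPM, with the others from 7.79 CPM, and Prothonotary Warbler female 6 had 3.40 CPM, with the others from 6.08 CPM.

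SMARCA2 was low in Prothonotary Warbler female 6 (220.3 CPM, the others from 278 CPM) and in House Wren male 6 (360.0 CPM, the others from 415 CPM). CCNH was high in Prothonotary Warbler male 8 (122 CPM, the others up to 90.6 CPM). CZH9orf64 was low in Carolina Wren female 7 (8.79 CPM, the others from 20.6 CPM). RCL1 was low in Tree Swallow male 2 (10.4 CPM, the others from 21.3 CPM) and high in Eastern Bluebird male 12 (45.4 CPM, the others up to 19.96 CPM). Barn Swallow female 3 was low in SNX24 (1.86 CPM, the others from 12.1 CPM) and in PRKAA1 (27.9 CPM, the others from 67.8 CPM). Eastern Bluebird male 12 and Barn Swallow female 3 were 2 of the 4 libraries that stood apart from their species.

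The male over female ratio differed between species in edgeR's test of sex by species for CZH18orf25 and for SMARCA2. For CZH18orf25 the adjusted p was 3.32e-05 (edgeR), with ratios from -0.69 to 1.16, higher in males in 8 of 10 species. That p was 0.107 without Yellow Warbler and 2.56e-09 without Barn Swallow female 3 (edgeR). For SMARCA2 the adjusted p was 0.0215 (edgeR), with ratios from 0.58 to 1.05, higher in males in 10 of 10 species. It was up to 0.1485 (edgeR) without 1 species.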

How the results depend on the processing

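The alternatives changed the scaling, the filter, the prior count, the tool or the birds used. Leaving out each species, leaving out each of 4 libraries alone and keeping TRIM14 in House Wren were chosen after the data were seen. The 4 libraries themselves were named with earlier results of these data known. Of the median ratios, that of Carolina Wren was 0.69 with all birds under their labels and that of Yellow Warbler 0.88 with the median of birds in place of the mean. Leaving out each bird in turn kept the medians between 0.76 and 0.84 in Eurasian Tree Sparrow, the lowest, and between 0.91 and 1.01 in Prothonotary Warbler, the highest. In Carolina Wren the number of genes called higher in males was then between 28 and 31.

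The 2 genes whose ratio differed between species were 1 when Barn Swallow, Yellow Warbler, House Sparrow or House Wren was left out, so leaving out a species or library gave between 1 and 2. For sex by nesting the count of 0 became 1 without the 4 libraries together, and leaving out 1 of them gave between 0 and 1. Over all genes DESeq2 called 184 for sex by species in place of 117. Leaving out each family in turn kept the count over species means at 0 of the 36 genes.

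The labels do not say whether equal bird numbers pair a male with a female. Of 39 pairs of the same species and number, 15 had correlated deviations above 0.1 (median 0.016). Such correlations cannot exclude a pairing. A fit with bird number as a replicate block called 0 of the 36 genes for sex by species, with adjusted p (edgeR) of 0.7503 for CZH18orf25 and 0.935 for SMARCA2. That fit takes the sex difference from those 39 pairs only, since a bird without a partner of its number adds nothing to it. Its higher p thus also reflects the smaller set of birds. Over all genes that fit called 46 in place of 117 for sex by species and 1 in place of 11 for sex by nesting. At a mean count under 3 in both sexes, as for TRIM14 in House Wren, the depth was too low for a ratio.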

Other observations

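The 298 other genes listed as Z-linked were spread more widely than the 36. Of 297 with a finite mean ratio over species, 105 were near 2-fold, 140 lay between 0.25 and 0.75, and 52 were near equal, with a median of 0.60. That list was written from general knowledge of avian Z chromosomes and entries whose symbols carry the prefix CZH, some of its genes may lie elsewhere in these species, and the 36 genes were chosen with their ratios in view, so the lists cannot be compared as samples of the chromosome. Among all 10540 tested genes with a finite mean ratio, 200 were at least 0.75.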
